A study of Mus musculus with 24 samples.

Results

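The integrated stress response genes followed here are Eif2ak1, Atf4, Atf5, Ddit3, Asns, Trib3, Ppp1r15a, Chac1 and Gadd45a, taken by symbol as 9 genes of one pathway among 16593 gene symbols with a probe. All 13 probes annotated to these symbols were used, of 25697 probes on the array. Ddit3 and Gadd45a had 2 probes each, Asns had 3, and every other gene had 1. The RNA came from reticulocyte-rich blood of adult male C57BL/6J mice, kept in culture and sampled at 0, 12 and 24 h. There were 3 wild-type and 5 mutant biological replicates at each time, which makes 24 Illumina bead arrays in 6 groups. Which gene is mutated is left unsaid in the labels, so no transcript could serve as a check of the mutation, and no treatment is given beyond the culture itself.

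The pathway links stress to protein synthesis. A set of kinases phosphorylates the initiation factor eIF2, which lowers general translation and at the same time favours translation of a few mRNAs, among them those for the transcription factors ATF4 and ATF5. In red cell precursors the kinase HRI, the product of Eif2ak1, does so when heme is scarce and thereby matches globin synthesis to heme supply. ATF4 then raises transcription of genes for amino acid supply (Asns), of a further transcription factor (Ddit3, also called CHOP) and of feedback regulators (Ppp1r15a, Trib3). A reticulocyte has no nucleus, so its RNA can fall or persist but is not renewed by transcription in that cell. The arrays measured RNA only, and neither phosphorylated eIF2 nor translation.

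ATF4 is known to act through composite sites with the core TGATGNAAN, in which N stands for any base. That core was searched on both strands of the RefSeq promoter windows of build GRCm38.p6, which are 300 bases long and lie mostly upstream of the annotated gene start. All 9 genes had a window, and 3 of them held the core, against 4.5% of 27025 mouse genes. These 3 windows are shown, as Asns and Chac1 gave contrasting results and Trib3 gave none, with the matched bases in capitals and each sequence written 5′ to 3′ on the gene's own strand.
Asns, chr6:7693160-7693459, minus strand: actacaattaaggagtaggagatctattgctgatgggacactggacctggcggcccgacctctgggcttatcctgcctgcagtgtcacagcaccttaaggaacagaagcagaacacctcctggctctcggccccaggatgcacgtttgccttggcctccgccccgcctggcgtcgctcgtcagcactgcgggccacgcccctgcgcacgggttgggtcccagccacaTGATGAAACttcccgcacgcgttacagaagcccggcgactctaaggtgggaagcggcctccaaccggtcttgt
Chac1, chr2:119350992-119351291, plus strand: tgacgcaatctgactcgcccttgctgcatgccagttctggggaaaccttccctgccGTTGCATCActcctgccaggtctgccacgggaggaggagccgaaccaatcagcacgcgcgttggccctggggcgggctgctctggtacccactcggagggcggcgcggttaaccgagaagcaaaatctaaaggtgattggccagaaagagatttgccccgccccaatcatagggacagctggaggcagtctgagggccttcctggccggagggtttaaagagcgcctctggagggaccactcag
Trib3, chr2:152344011-152344310, minus strand: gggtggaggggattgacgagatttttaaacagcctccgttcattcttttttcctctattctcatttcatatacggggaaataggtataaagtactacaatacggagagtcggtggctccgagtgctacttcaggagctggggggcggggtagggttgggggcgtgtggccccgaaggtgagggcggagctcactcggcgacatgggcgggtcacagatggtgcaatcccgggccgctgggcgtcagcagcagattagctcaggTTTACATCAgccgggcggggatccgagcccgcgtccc
In Asns the match, TGATGAAAC, lay on the gene's strand and began 23 bases before the start. In Chac1 and Trib3 the core lay on the opposite strand, and the letters GTTGCATCA and TTTACATCA are its reverse complement. Windows of 14 of the 46 other pathway genes that had one also held the core, Nupr1, Herpud1, Aars and Gars among them. The cyclic AMP response element TGACGTCA, which shares no overlap with the core, was in the window of 1 member, Ppp1r15a, and in 2.03% of all genes. Such matches describe letters in a window and are not measured binding sites.

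The arrays differed in depth of signal, and this bears on all that follows. Unnormalized signals had medians of 132 to 298 on the 0 h arrays and of 38.7 to 44.7 on the later arrays, so raw signals at 0 h cannot be set against later ones. A probe counted as above background on an array where its detection p was below 0.01. The share of all probes above background was 2.17% to 7.72% on wild-type arrays and 3.6% to 28.8% on mutant arrays. Reticulocyte markers were high on every array, with 5 or 6 of 7 measured markers above background and Epb4.2 never so. At 0 h their summed normalized signal was 91310 to 97780 in wild type and 80919 to 90488 in mutant, without overlap. The summed normalized signal of 9 B cell markers was 1045 to 1372 in wild type and 2285 to 6693 in mutant at 12 h. For 8 neutrophil markers the 12 h sums were 942 to 1660 and 2174 to 8676, and for 6 platelet markers 367 to 1801 and 1701 to 3282. For 5 monocyte markers they were 186 to 280 and 389 to 1075. The T cell sums at 12 h overlapped, at 612 to 705 and 620 to 741. Above background were 1 or 2 of 7 T cell markers on wild-type arrays and 5 on mutant arrays. Of the 5 tested, 4 were higher and 1 was lower in mutant, where 34.1% of all probes were higher and 15.8% lower. At 24 h the sums of each of these cell types overlapped, B cells at 698 to 1144 in wild type and 1008 to 2415 in mutant. In mutant from 12 to 24 h 6 of 8 tested B cell genes and 1 of 5 T cell genes fell. Over the same hours 2 of 7 neutrophil genes rose, and no platelet or monocyte gene passed. Of all probes 29.8% passed there, 14% as higher and the rest as lower. Cd5, Cd8a, Mmp8, Fcgr1 and Ccr2 were never above background. The part of these cells, and of the share of probes above background, in the results below was not tested. In such bulk RNA, fewer cells of a type and less RNA per cell cannot be told apart.

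Raw signals at 12 and 24 h are given as deposited. Those arrays had similar medians, but a median lies mostly in background probes. The share of probes above background at 12 h was 4.92% to 6.62% in wild type and 13% to 28.8% in mutant, so raw levels there are a description and share no settled scale. For tests, signals were corrected for background, brought to one distribution by quantile normalization and log2-transformed, and each probe was fitted with limma over all 24 arrays. Adjusted p-values are Benjamini-Hochberg values over the 6312 probes above background on at least 3 arrays, and 0.05 was the threshold. Of the 13 member probes, 12 from 8 genes were among these 6312. The probe for Trib3, a pseudokinase that restrains ATF4, was above background on 0 of 24 arrays and was not tested. Its raw signals were 43.9 to 48.2 in wild type and 41.1 to 49.2 in mutant at 12 h.

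**Figure D1:**
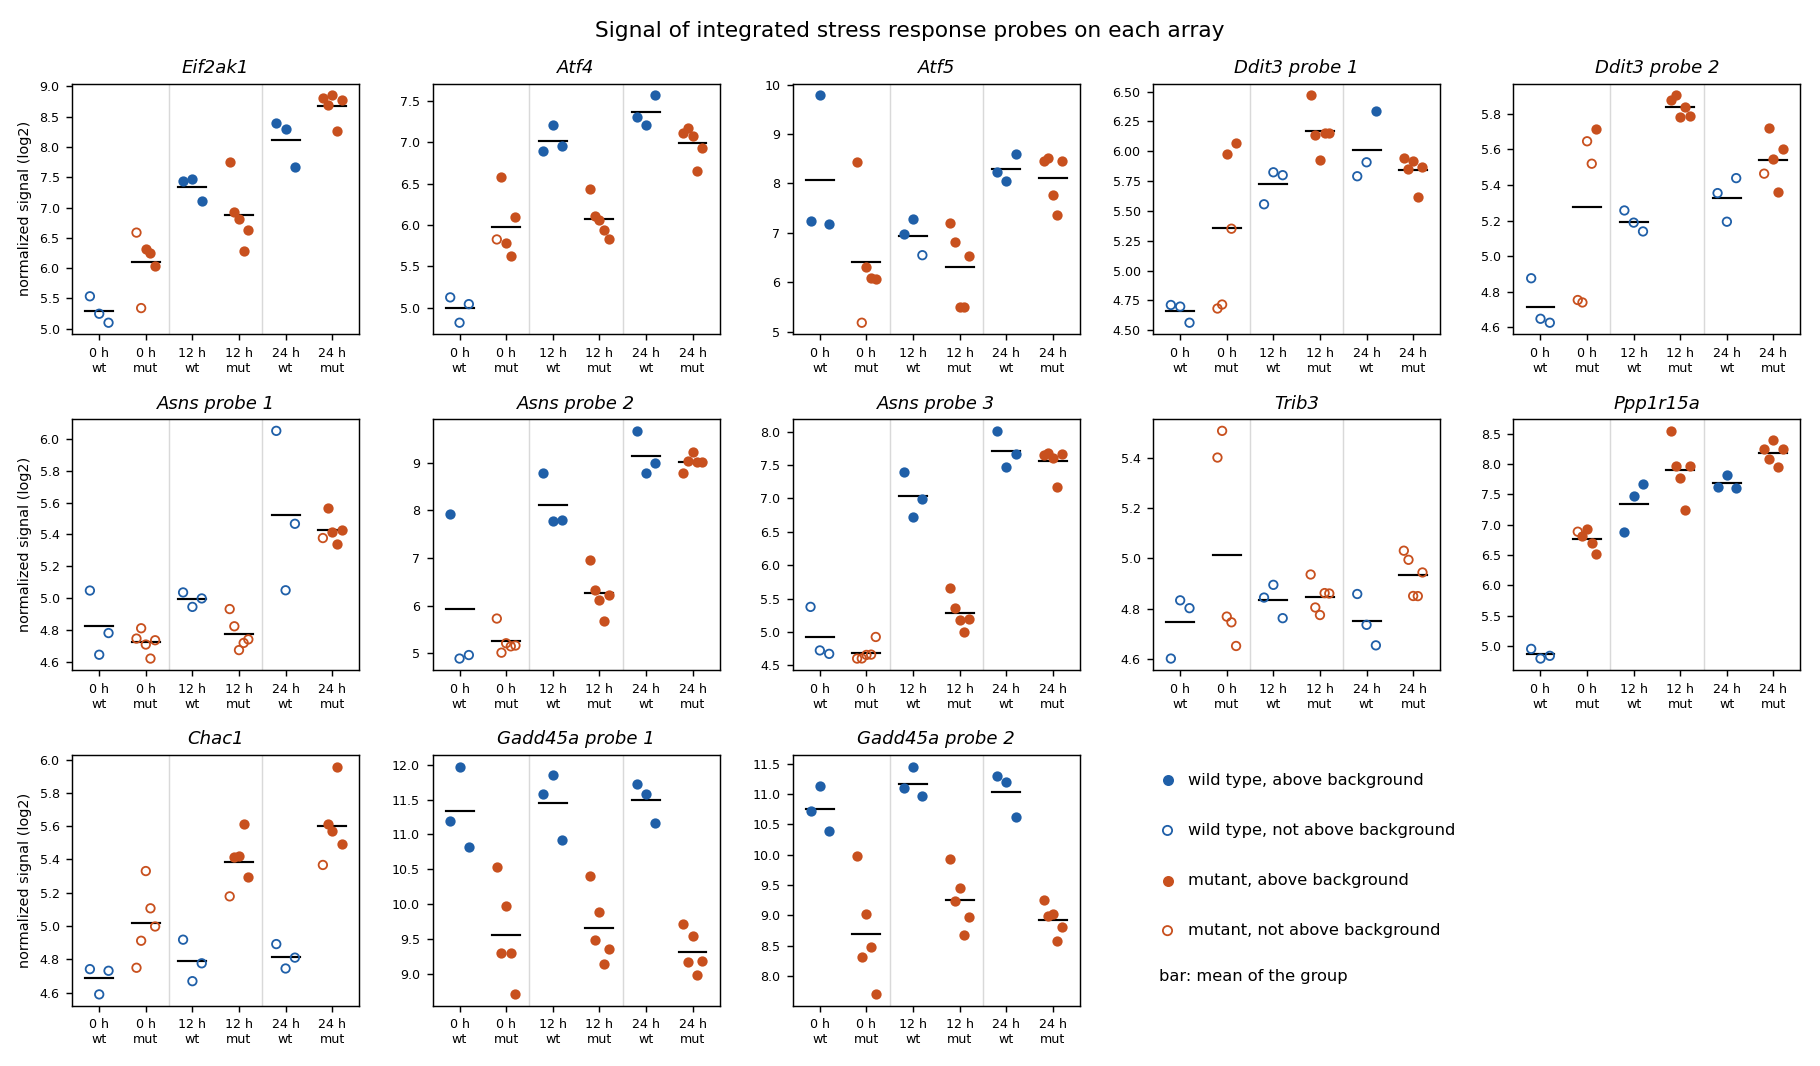
Normalized log2 signal of each of the 13 member probes on every array, by time and genotype (wt, wild type, n = 3; mut, mutant, n = 5); each panel has its own vertical range. Filled points are above background, open points are not, and bars are group means. Gadd45a lies lower in mutant at every time, Asns probes 2 and 3 lie lower in mutant at 12 h and overlap with wild type at 24 h, and Chac1 is open on all wild-type arrays.

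Gadd45a, a gene of growth arrest and DNA damage responses, was above background on all 24 arrays and was lower in mutant at 12 and 24 h by both of its probes. At 12 h the raw signal of probe 1 was 6057, 4990 and 1996 on the wild-type arrays. On the mutant arrays it was 1023, 556, 1166, 1010 and 628. Every mutant array lay below every wild-type array, and the lowest wild-type array was the one of replicate 3. The same was seen at 24 h, with 3019, 2301 and 1868 in wild type against 933, 614, 985, 805 and 693 in mutant. Probe 2 gave 4254, 4195 and 2010 against 773, 470, 880, 801 and 512 at 12 h. At 24 h it gave 2292, 1787 and 1279 against 716, 514, 722, 596 and 547. Again the 2 groups did not overlap at either time.

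The normalized difference of Gadd45a, mutant minus wild type, was −1.80 ± 0.35 (log2, SE; 3.48-fold lower) by probe 1 and −1.92 ± 0.36 (3.78-fold lower) by probe 2 at 12 h, with adjusted p of 0.00038 and 0.00026. At 24 h the differences were −2.17 ± 0.35 and −2.11 ± 0.36, with adjusted p of 0.00011 and 0.00022. The calls at both times held under every scaling, filter and left-out array that was run. The sizes varied more: over the alternatives the 12 h differences ranged from −3.09 to −1.67 by probe 1 and from −3.12 to −1.75 by probe 2. At 0 h the fitted differences were as large, at −1.77 ± 0.35 and −2.06 ± 0.36 (adjusted p 0.00036 and 9.4e-05), and the normalized groups did not overlap. Raw signals of probe 1 at 0 h were 1118, 1657 and 983 in wild type and 1380, 660, 1335, 965 and 982 in mutant, on arrays whose medians differed too much for a direct comparison. With arrays centred on their medians instead of quantile-normalized, the 0 h differences were −0.41 and −0.45 (adjusted p 0.37 and 0.33), while the values processed by the authors gave −0.57 and −0.58 (adjusted p 0.33 and 0.31). The 0 h call thus depended on the scaling. Within either genotype no normalized change of Gadd45a over time passed the threshold: from 0 to 24 h probe 1 gave 0.16 ± 0.39 in wild type (95% interval −0.65 to 0.97) and −0.24 ± 0.30 in mutant (−0.87 to 0.39). That too depended on the scaling. Over the same hours the wild-type change of probes 1 and 2 was 1.86 and 2.09 under median centring (adjusted p 0.0011 and 0.00035) and 3.29 and 3.32 with the authors' values (adjusted p 1.4e-06 and 5.8e-07).

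Asns, the gene for asparagine synthetase and a standard ATF4 target, was lower in mutant at 12 h and then rose in mutant by 24 h, when the groups overlapped. Raw signals of probe 2 at 12 h were 769, 222 and 166 in wild type and 104, 89.6, 130, 130 and 107 in mutant. Probe 3 gave 244, 104 and 98.2 in wild type and 59, 54.3, 60.2, 60.7 and 55.6 in mutant. The groups did not overlap by either probe, although wild-type replicate 1 stood well above the other 2. At 24 h probe 2 gave 727, 334 and 376 in wild type and 473, 529, 829, 822 and 624 in mutant. Probe 3 gave 208, 119 and 139 against 187, 193, 248, 220 and 222. By 24 h the groups overlapped, and wild-type replicate 1 was again the highest of its group.

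The fitted 12 h difference of Asns was −1.86 ± 0.47 by probe 2 (3.64-fold lower in mutant, adjusted p 0.0033) and −1.76 ± 0.22 by probe 3 (3.39-fold lower, adjusted p 1.3e-06). Both calls held under all alternatives and with any single array left out, and the smallest sizes among the alternatives were −1.02 and −0.89. At 24 h the differences were −0.14 ± 0.47 and −0.16 ± 0.22, with 95% intervals of −1.10 to 0.82 and −0.61 to 0.29. From 12 to 24 h the mutant rose by 2.75 ± 0.40 by probe 2 (6.74-fold, adjusted p 1.8e-05) and by 2.28 ± 0.19 by probe 3 (4.85-fold, adjusted p 4.9e-09). Among 6312 probes these changes ranked 14 and 33 by size. In wild type the changes over the same hours were 1.03 ± 0.52 and 0.68 ± 0.24 (adjusted p 0.32 and 0.11). These wild-type results depended on the setting: probe 2 passed in 3 of 9 alternatives and probe 3 in 2 of 8. By the authors' values the wild-type changes were 1.37 and 0.80 (adjusted p 0.0012 and 0.0058). With array weights they were 1.14 and 0.82 (adjusted p 0.00059 and 0.00031). The genotypes differed in the change from 12 to 24 h by 1.60 ± 0.31 by probe 3 (adjusted p 0.0053). By probe 2 the value was 1.73 ± 0.66 and did not pass (adjusted p 0.22). It passed in 3 of 9 alternatives: the authors' values (adjusted p 0.017), array weights (5.9e-05) and only the groups compared (0.0071). Under median centring the probe 3 value was 1.47 with adjusted p 0.15. The comparison at 12 h and the changes from 12 h share the 12 h arrays, so they are not independent of each other.

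The third Asns probe, probe 1, lay near background. It was above background on 4 of 24 arrays, all of them mutant arrays at 24 h, where its raw signals were 48.2, 52.3, 55.1, 58.6 and 52.1. In wild type at 24 h it read 57, 42.3 and 46.2. It entered the test through that group alone, so its mutant call from 12 to 24 h is no support for the rise that probes 2 and 3 showed. At 12 h probe 1 was not above background in either genotype. At 0 h Asns was above background by probe 2 on 1 wild-type array and no mutant array, and by probe 3 on none. Against the lowest signal above background on the 0 h arrays, probes 2 and 3 were at least 8.46-fold and at least 3.08-fold higher in mutant at 24 h than at 0 h (adjusted p 8e-08 and 5.4e-11).

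Chac1, which encodes an enzyme that degrades glutathione, went the other way. It was above background on 0 of 9 wild-type arrays and on 4 of 5 mutant arrays at 12 h and again at 24 h. Raw signals at 24 h were 41.3, 38.2 and 39.8 in wild type and 48.1, 53.2, 60.1, 89.6 and 53.5 in mutant. No mutant array fell to the wild-type range at 24 h, and mutant replicate 4 was the highest. At 12 h the values were 51.9, 40.6 and 44.2 against 50.3, 56.3, 76.9, 124 and 59.9, and mutant replicate 1 lay within the wild-type range. The tests gave adjusted p of 0.0018 at 12 h and 0.00029 at 24 h, with no fold given since the wild-type arrays were not above background. Chac1 entered the test only through the mutant arrays, the genotype in which it was called higher, so these calls are a description. The 12 h call was lost when the authors' own scale was used (adjusted p 0.057) and the 24 h call under median centring (adjusted p 0.19). At 0 h no array of either genotype was above background.

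Ddit3, the transcription factor CHOP, was above background by both probes on 5 of 5 mutant arrays and 0 of 3 wild-type arrays at 12 h. Probe 1 read 75.4, 68.1 and 60.7 in wild type and 81.8, 81.3, 113, 190 and 102 in mutant. Probe 2 read 64.1, 54.2 and 50.7 in wild type and 64.2, 72.9, 102, 149 and 82.6 in mutant. The groups did not overlap by either probe, but the gap of probe 2 was very small and mutant replicate 4 was the highest by both. Probe 2 passed the test (adjusted p 0.01) and probe 1 did not (adjusted p 0.15). Probe 2 was above background on no wild-type array at any time. It entered the test only through the mutant arrays, so its call is a description. Probe 1 was above background on 1 wild-type array, at 24 h, and likewise entered the test through the mutant arrays. The calls of both probes were not stable across scalings: probe 2 had adjusted p 0.15 with the authors' values, and probe 1 had adjusted p 0.0043 under median centring. At 24 h the fitted differences were −0.17 ± 0.26 by probe 1 and 0.21 ± 0.19 by probe 2, and neither passed (adjusted p 0.66 and 0.45). At 0 h both passed as higher in mutant (0.70 and 0.56, adjusted p 0.032 and 0.024), above background on 2 and 1 of 5 mutant arrays. These 0 h calls were lost in 5 of 12 and 3 of 11 alternatives. With 1 array left out they were lost in 6 and 5 of 24 fits.

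Ppp1r15a encodes GADD34, which brings a phosphatase to eIF2 and so ends the response. Its raw signals at 12 h were 165, 177 and 153 in wild type and 274, 218, 350, 385 and 285 in mutant. At 24 h they were 157, 150 and 133 against 306, 266, 455, 379 and 357. Every mutant array was above every wild-type array at both times on the raw scale. After quantile normalization the 12 h groups overlapped, with a difference of 0.56 ± 0.25 (adjusted p 0.068), and at 24 h the difference was 0.50 ± 0.25 (adjusted p 0.17). Median centring gave 1.70 and 1.37 (adjusted p 0.00084 and 0.0074), and the values processed by the authors gave 0.01 and 0.59 (adjusted p 0.98 and 0.046). Whether Ppp1r15a differed between genotypes in culture therefore depended on the scaling. At 0 h it was above background on 4 of 5 mutant arrays and 0 of 3 wild-type arrays (adjusted p 2.8e-06). In mutant it rose by 1.14 ± 0.22 from 0 to 12 h (2.2-fold, adjusted p 8e-04), and from 12 to 24 h the change was 0.28 ± 0.22 (adjusted p 0.34).

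Eif2ak1, the gene for the heme-regulated kinase HRI, rose late in culture in mutant. Raw signals at 24 h were 289, 216 and 140 in wild type and 476, 416, 634, 485 and 537 in mutant. At 12 h they were 256, 178 and 105 against 164, 122, 204, 207 and 135. The groups overlapped at 12 h, and at 24 h every mutant array was above the wild-type range on the raw scale. The normalized mutant change from 12 to 24 h was 1.80 ± 0.26 (3.48-fold, adjusted p 1.8e-05), and it held under every alternative, with a range of 1.41 to 2.09. In wild type the change was 0.78 ± 0.34 (adjusted p 0.22), and the difference of the changes, 1.02 ± 0.43, did not pass (adjusted p 0.27). The wild-type change passed in 3 of 9 alternatives, among them the authors' values (0.98, adjusted p 0.02) and array weights (0.78, adjusted p 0.0024). The difference of the changes passed in 2 of 9, the authors' values (1.11, adjusted p 0.043) and array weights (1.24, adjusted p 0.00024). The genotype difference at 24 h was 0.56 ± 0.31 (adjusted p 0.2), and 1.39 under median centring (adjusted p 0.017). From 0 to 24 h Eif2ak1 was at least 1.97-fold higher in wild type (adjusted p 4.2e-07) and 5.96-fold higher in mutant (2.57 ± 0.26, adjusted p 4.3e-08). The first is a lower bound and the second a fitted fold. By limma the genotypes were not shown to differ in this change (−0.25, adjusted p 0.74). At 0 h Eif2ak1 passed as higher in mutant (0.82, adjusted p 0.037), above background on 3 of 5 mutant and 0 of 3 wild-type arrays. That call was lost in 8 of 12 alternatives and in 6 of 24 fits with 1 array left out.

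Atf4 encodes the transcription factor at the centre of the pathway. At 12 h its raw signals were 166, 143 and 95.6 in wild type and 80.5, 80.2, 125, 161 and 84.7 in mutant, and the groups overlapped. After normalization they did not, with a difference of −0.94 ± 0.22 (1.92-fold lower in mutant, adjusted p 0.002). Median centring gave 0.32 (adjusted p 0.4), and that scaling also moved the median of all tested probes from 0.29 to 0.75. Set against those medians, Atf4 lay lower by 1.23 and by 0.43 under the respective scalings, so its sign was shared only relative to the other probes. At 24 h the difference was −0.38 ± 0.22 (adjusted p 0.23). In mutant Atf4 rose by 0.91 ± 0.19 from 12 to 24 h (1.88-fold, adjusted p 0.001; 0.58 with adjusted p 0.095 under median centring). At 0 h Atf4 was above background on 4 of 5 mutant and 0 of 3 wild-type arrays (adjusted p 0.0012; 0.14 with the authors' values).

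Atf5, a relative of Atf4 that is also controlled at translation, had the largest standard errors of the 12 tested probes. Its normalized signals at 0 h were 7.24, 9.79 and 7.17 in wild type and 8.44, 5.18, 6.31, 6.09 and 6.08 in mutant. The fitted 0 h difference of −1.65 ± 0.59 (adjusted p 0.03) rested on the second wild-type array, without which it was −0.78 (adjusted p 0.3), and it was 0.25 under median centring. Differences at 12 and 24 h were −0.63 ± 0.59 and −0.18 ± 0.59 (adjusted p 0.38 and 0.86). From 12 to 24 h mutant Atf5 rose by 1.80 ± 0.51 (3.48-fold, adjusted p 0.011), and raw signals went from 119, 116, 82.7, 110 and 127 to 364, 364, 282, 253 and 426 without overlap. Wild type gave 1.35 ± 0.66 (adjusted p 0.3; 1.87 with adjusted p 0.022 under median centring), and the changes were not shown to differ, at 0.45 ± 0.84 (adjusted p 0.88).

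**Figure D2:**
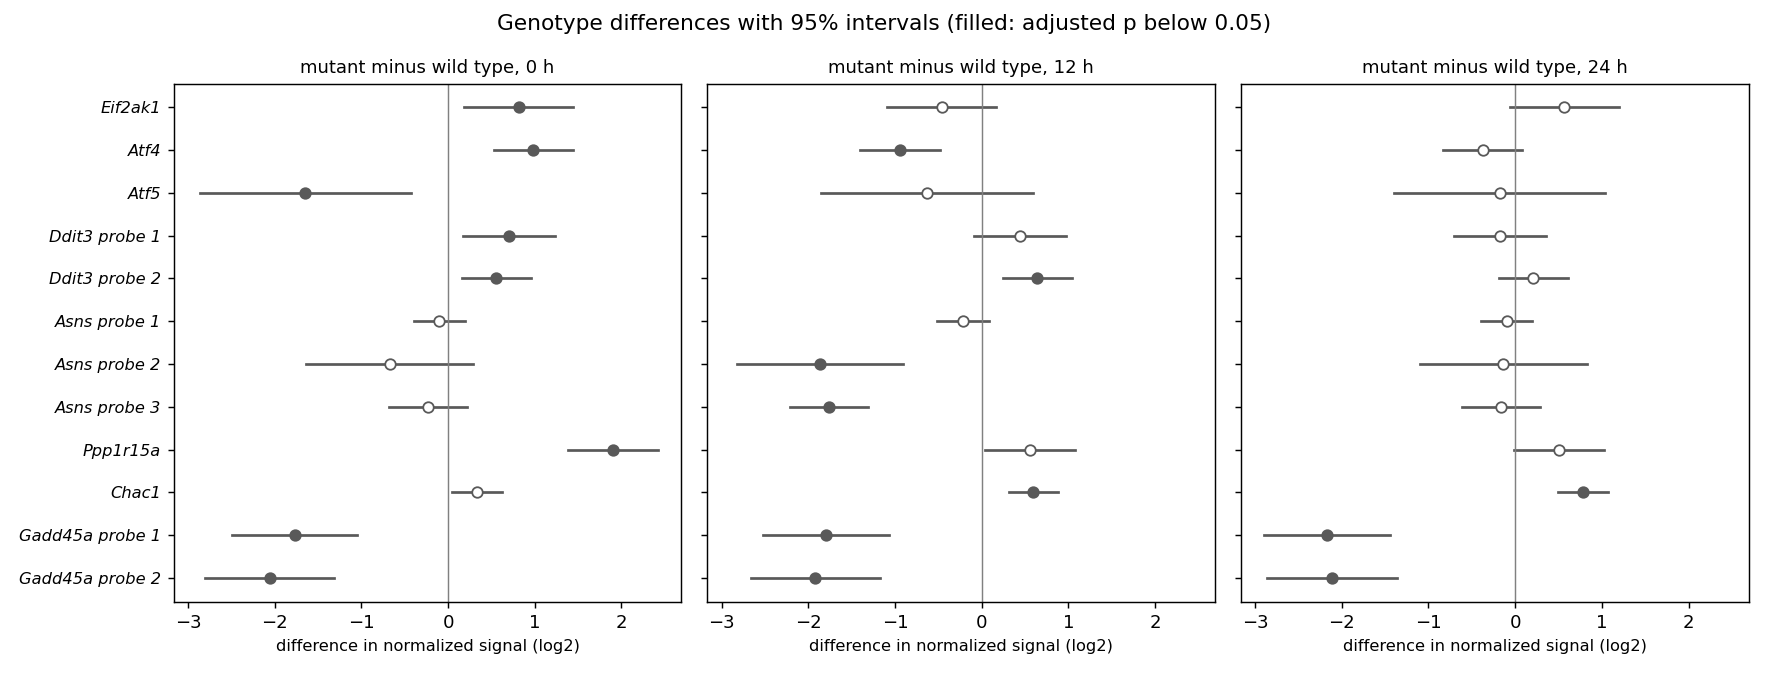
Mutant minus wild-type difference in normalized log2 signal of the 12 tested member probes at 0, 12 and 24 h, with 95% intervals from the limma fit (3 wild-type and 5 mutant arrays at each time); filled points passed the adjusted threshold. Where a group was not above background on any array, as for Chac1 in wild type, the point is a fitted value and not a measured fold. The Gadd45a points lie near −2 at all times, and the Asns points of probes 2 and 3 move from below −1.7 at 12 h to near 0 at 24 h.

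The members did not move as a block between genotypes. At 0 h 8 of the 12 probes passed, 5 higher and 3 lower in mutant. Over all 6312 probes 39.8% passed, 32.2% as higher and 7.62% as lower. At 12 h 7 passed, 2 higher and 5 lower, against 50% of all probes, 34.1% as higher and 15.8% as lower. At 24 h 3 passed, Chac1 as higher and the pair of Gadd45a probes as lower, against 18% of all probes, 9.35% as higher and 8.65% as lower. The groups did not overlap for 5, 9 and 5 of the 12 probes at 0, 12 and 24 h, where 21.6%, 59.4% and 38.6% of all probes did not overlap. The members' counts of calls at 12 and 24 h, 58.3% and 25% of the 12 probes, were near the background. The median difference of the member probes was 0.12, −0.54 and −0.15 at the 3 times, beside 0.24, 0.29 and 0.17 over all tested probes. Chac1, Ddit3 probe 2 and Asns probe 1 were above background on mutant arrays only and so entered the test through that group. Ddit3 probe 1, above background on 1 wild-type array, also needed the mutant arrays to enter. The 0 h calls of both Ddit3 probes as higher are therefore a description.

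On the raw scale the groups did not overlap at 12 h for both Ddit3 probes and Ppp1r15a, higher in mutant. The same held for all probes of Asns and Gadd45a, lower in mutant, though Asns probe 1 was above background in neither genotype. How many of all probes did so on the raw scale was not counted, so this is a description. At 24 h the lower ones were both Gadd45a probes. The higher ones at 24 h were Eif2ak1, the second Ddit3 probe, Ppp1r15a and Chac1.

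**Figure D3:**
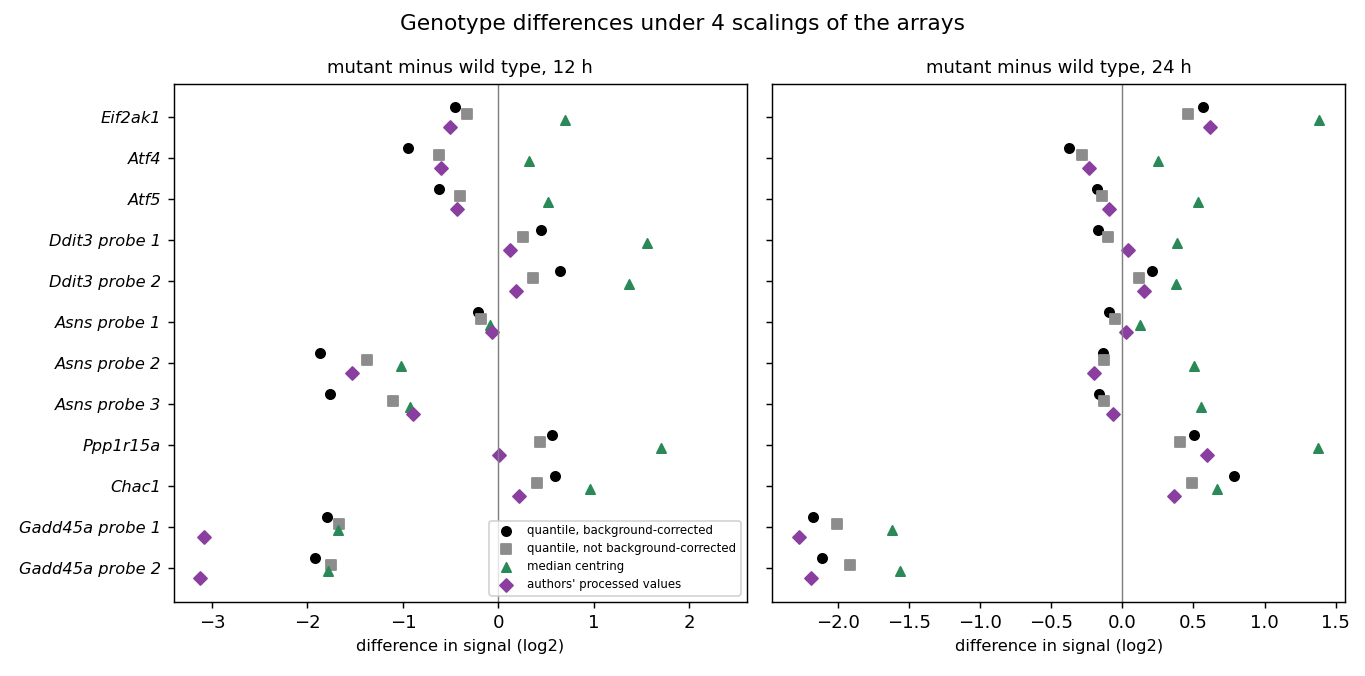
Mutant minus wild-type difference (log2) of the 12 tested member probes at 12 and 24 h under 4 ways of scaling the same arrays; each symbol is 1 scaling. Gadd45a and Asns at 12 h keep their side of 0 under all of them, whereas Eif2ak1, Atf4 and Atf5 at 12 h lie above 0 only under median centring and Ppp1r15a ranges from 0.01 to 1.70.

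Over time every member call was a rise in normalized signal. Quantile normalization gives all arrays one distribution, so such a rise is relative to the other probes. The amount of RNA per cell was not measured. In wild type 6 of 12 probes rose from 0 to 12 h (44.6% of all probes passed, 36.5% as higher) and 8 rose from 0 to 24 h (49.1%, 38% as higher). Of these, 1 of the 6 (Ddit3 probe 1) and 2 of the 8 (Ddit3 probe 2 and Asns probe 1) were above background at neither time. In mutant 6 rose from 0 to 12 h (30.6%, 26.3% as higher) and 8 from 0 to 24 h (45%, 31% as higher). Those changes rest on the 0 h arrays, where 8 of the 12 probes were above background on no wild-type array. Both Ddit3 probes and Chac1, counted in mutant from 0 to 12 h, entered the test through mutant arrays. So did Chac1 and Asns probe 1, counted in mutant from 0 to 24 h. Between 12 and 24 h 1 wild-type probe passed (6.42%, 4.44% as higher). That was Asns probe 1, which was not above background at either time in wild type. In mutant 6 probes of 4 genes rose from 12 to 24 h (29.8%, 14% as higher): Eif2ak1, Atf4, Atf5 and all 3 probes of Asns. Without Asns probe 1, which was tested only because of the mutant 24 h arrays, 5 rose. Ddit3, Ppp1r15a, Chac1 and Gadd45a did not pass in that interval, although under median centring both Ddit3 probes fell, by 0.99 and by 0.97 (adjusted p 0.029 and 0.016). Ppp1r15a passed in that interval by the authors' values (1.05, adjusted p 8e-05) and with array weights (0.43, adjusted p 0.0078). The median change of the 12 probes from 12 to 24 h was 0.47 in mutant and 0.34 in wild type, beside −0.11 and −0.06 over all tested probes.

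**Figure D4:**
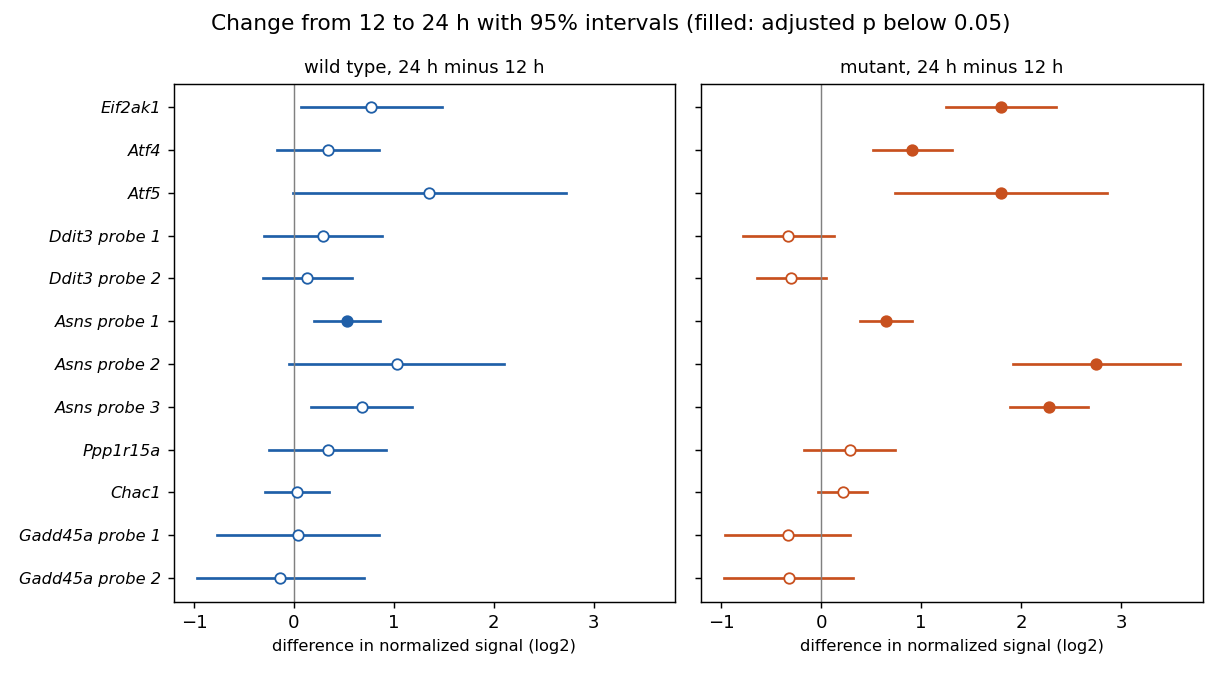
Change in normalized log2 signal from 12 to 24 h of the 12 tested member probes, with 95% intervals, in wild type (3 arrays at each time) and mutant (5 at each time); filled points passed the adjusted threshold. In mutant the Asns probes 2 and 3, Atf5 and Eif2ak1 lie at 1.80 or above, and in wild type the filled point is Asns probe 1.

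The change over time was compared between genotypes with the same arrays. From 0 to 12 h 4 probes differed, all with a smaller rise in mutant (15.8% of all probes passed, 12.7% in that direction). They were Eif2ak1 (−1.27 ± 0.43, adjusted p 0.046), Atf4 (−1.93 ± 0.31, adjusted p 0.00022), Asns probe 3 (−1.53 ± 0.31, adjusted p 0.0014) and Ppp1r15a (−1.34 ± 0.36, adjusted p 0.012). From 0 to 24 h Atf4 and Ppp1r15a were the 2 that differed (−1.36 ± 0.31 and −1.40 ± 0.36, adjusted p 0.0042 and 0.0091; 16.7% passed, 12% in that direction). In each of these the wild-type 0 h arrays were not above background, so the sizes are fitted values, and none passed under median centring. The Eif2ak1 call was also lost in 18 of 24 fits with 1 array left out, with adjusted p up to 0.11, and in 7 of 11 alternatives, median centring among them. From 12 to 24 h the 1 probe that differed was Asns probe 3 (1.47% passed, 1.05% in that direction).

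Of 58 other genes of the pathway, 27 were above background often enough to be tested, each by its brightest probe. At 12 h 6 were higher and 5 lower in mutant, at 24 h 4 were higher and 0 lower by limma, and at 0 h 9 were higher and 2 lower. Over all probes 50%, 18% and 39.8% passed at 12, 24 and 0 h, so the pathway counts were near or below the background. The median differences were 0.27 at 12 h and 0.10 at 24 h. Nars, the asparaginyl-tRNA synthetase gene, moved much like Asns: normalized means were 7.51 ± 0.31 (SD, n = 3) in wild type and 5.59 ± 0.23 (n = 5) in mutant at 12 h, and 7.91 ± 0.27 and 7.50 ± 0.36 at 24 h. Its 12 h difference was −1.92 ± 0.23 (adjusted p 6.8e-07), and it rose in mutant by 1.91 ± 0.20 from 12 to 24 h (adjusted p 1.2e-07). The genotypes differed in that change by 1.51 ± 0.32 (adjusted p 0.012). Eif2s3x, a subunit of eIF2, was lower in mutant at 12 h by a difference of −1.60 ± 0.32 (adjusted p 0.00042).

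Genes higher in mutant at 12 h included the eIF2B subunits Eif2b5 and Eif2b2 (adjusted p 0.0029 and 0.005), above background on 5 of 5 mutant and 0 of 3 wild-type arrays. At 24 h Ddit4, a stress-induced inhibitor of growth signalling, was above background on 4 of 5 mutant and 0 of 3 wild-type arrays (adjusted p 0.02). Sars, the seryl-tRNA synthetase gene, and Shmt2, of mitochondrial serine metabolism, were so on 5 of 5 and 0 of 3 (adjusted p 0.019 and 0.03). Eif2b5, Eif2b2, Ddit4, Sars and Shmt2 were above background on no wild-type array at any time. They entered the test only through the genotype in which they were called higher, and their calls are a description. Herpud1, of the endoplasmic reticulum stress response, passed at 0 h (5 of 5 and 0 of 3, adjusted p 8.3e-07). Among the transfer RNA synthetase genes 9 were tested, and 4 rose in mutant from 12 to 24 h, where 14% of all probes rose. Sars was among the 4, and as it entered the test only through mutant arrays in culture, its rise is a description. In wild type 2 of those 9 rose over the same hours, where 4.44% of all probes did, Aars (adjusted p 0.013) and Mars (adjusted p 0.0021), the latter above background on no wild-type array.

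The probes most like each member over the 6 groups were ranked by the root mean square distance between centred group means. For Asns probe 3 they were Oasl2 (0.13), Kctd20 (0.17) and Nars (0.18), where the median over all probes was 1.28. Oasl2 was also nearest to Asns probe 2 (0.32). For Gadd45a, Ift20 was nearest to both probes (0.20 and 0.26). Eif2ak1 lay nearest to Supt4a (0.14), Atf4 to Mospd1 (0.11), Atf5 to Tmem183a (0.24) and Ppp1r15a to Cir1 (0.15). With 6 group means per probe, many probes lie close by, and the distances describe the profiles and nothing further.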

How the data were processed

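RNA was isolated, amplified and biotin-labelled with column and Illumina kits, per the labels' protocols. The deposited table gives a raw signal intensity per probe, neither normalized nor background-subtracted by the authors, a detection p-value in steps of 1 in 798 and a bead count, per the file headers. Its bead standard errors were not used. The authors' processed intensity values are a straight line of the raw signal on each array, by a method not stated there. The middle time is 12 h by the labels, which were followed, and 15 h by the deposited key. No genome build is stated.

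Signals were normalized with limma neqc (limma 3.58.1, R 4.3.3; offset 16, then log2). Probes with detection p below 0.01 on at least 3 arrays were fitted by limma with 6 group means and an intensity trend, and p-values were adjusted by Benjamini-Hochberg over all 6312. Bounds for groups never above background use each array's lowest signal above background.

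All member probes were named. Of the other pathway genes, up to 4 per comparison with the smallest p were named, and 3 most alike probes were sought for each member probe above background on at least 12 arrays. The members and lists were chosen with earlier results of these data known. Alternatives were median centring, no background correction, the authors' values on a log2 scale with a floor of 16, other filters, array weights, 1 probe per gene, only the groups compared, a replicate block and each array left out. Splits of the 0 h arrays at a median signal of 200 were added after seeing the data. Same-numbered arrays met the rule for pairing, every correlation above 0.1, from 12 to 24 h (0.17 to 0.64). In mutant 4 of 5 pairs were also above 0.1 from 0 to 12 h and from 0 to 24 h. The labels state no pairing. Figures used matplotlib.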

Additional observations from a re-analysis of the deposited data

Results flagged for a closer look

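Some arrays lay apart from the rest of their group, in 5 of the 39 groups of 5 mutant arrays examined, where chance flags about 1 group in 20. Mutant replicate 4 at 24 h was lowest for Eif2ak1 (normalized signal 8.27, others 8.70 to 8.86), for Ddit3 probe 1 (5.62, others 5.85 to 5.94) and for Asns probe 3 (7.16, others 7.61 to 7.68). At 0 h, mutant replicate 1 was highest for Asns probe 2 (5.73, others 5.01 to 5.21) and mutant replicate 5 for Asns probe 3 (4.92, others 4.60 to 4.66), none of these being above background.

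The change over time differed between genotypes, by the limma interaction term, in 7 values. From 0 to 12 h these were Eif2ak1 (−1.27), Atf4 (−1.93), Asns probe 3 (−1.53) and Ppp1r15a (−1.34). From 0 to 24 h they were Atf4 (−1.36) and Ppp1r15a (−1.40), and from 12 to 24 h Asns probe 3 (1.60). None of the 7 passed under median centring, where adjusted p ranged from 0.15 to 0.81, and the cause was not tested.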

How the results depend on the processing

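Each value was recomputed under the alternatives. Of 1428 values under other settings, 1253 kept direction and side of the threshold, 86 no longer passed, 84 newly passed and 5 reversed. Of 3456 values with 1 array left out, 3367 kept both, 70 no longer passed, 19 newly passed and 0 reversed. The reversed values were Atf5 at 0 h (0.25) and Atf4 at 12 h (0.32) for mutant minus wild type under median centring. By the values the authors processed they were the mutant change of Gadd45a probe 1 from 0 to 24 h (1.58), the interaction of Gadd45a probe 2 from 0 to 12 h (−2.55) and that of Ppp1r15a from 0 to 24 h (0.01, 0.0067 unrounded). The cause was not tested.

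Counts of member probes called moved as follows. At 0 h the 8 became 4 with only the high-background 0 h arrays, 4 with the authors' values, 5 with a background-class block, 3 under median centring, 5 with no filter and 3 with only the groups compared. At 12 h the 7 became 4 with 1 probe per gene and 12 with array weights. At 24 h the 3 became 6 with weights and 5 with only the groups compared. In wild type from 12 to 24 h the 1 became 0 with 1 probe per gene, with detection p below 0.05, without background correction or with no filter, 5 with weights, 4 with the authors' values and 3 with only the groups compared. From 0 to 24 h in wild type the 8 became 5 with 1 probe per gene. In mutant from 0 to 12 h the 6 became 3 with only low-background 0 h arrays and 2 with the authors' values. Interactions from 0 to 12 h fell from 4 to 2 with low-background arrays, without background correction or with only the groups compared, and to 0 under median centring. From 12 to 24 h the 1 became 0 with 1 probe per gene or median centring, 5 with weights, 3 with the authors' values and 2 with only the groups compared. From 0 to 24 h the 2 became 5 with low-background arrays, 0 under median centring or by the authors' values, and 1 without background correction.

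With each array left out in turn, counts ranged from 4 to 9, 7 to 8 and 3 to 3 for the genotypes at 0, 12 and 24 h, from 6 to 7, 0 to 2 and 7 to 8 in wild type and 4 to 7, 6 to 6 and 8 to 9 in mutant for 0 to 12, 12 to 24 and 0 to 24 h, and from 3 to 5, 1 to 2 and 2 to 4 for the interactions. A random replicate block within genotype (consensus correlation 0.15) gave 9 calls at 0 h, with Chac1 at adjusted p 0.049, and 7 in mutant from 0 to 12 h, and left the other counts as they were. It changed no call from 12 to 24 h, where same-numbered arrays deviated together. Of all probes called, the share higher in mutant at 0, 12 and 24 h was 80.9%, 68.3% and 51.9%, against 97.6%, 91.8% and 84.9% when arrays were centred on their medians. The authors' values gave 91.7%, 28.2% and 79.1%. For changes over time that share moved by over 10 percentage points in mutant from 12 to 24 h (47%, 18.8% centred and 88.8% by the authors' values) and from 0 to 24 h (68.9%, 57.7% and 84.2%), and, among the scalings, by the authors' values alone in mutant from 0 to 12 h (85.8% to 72.6%) and wild type from 12 to 24 h (69.1% to 52.3%), and in the interactions (19.6% to 6.42%, 71% to 96.9% and 28.1% to 43.8% for 0 to 12, 12 to 24 and 0 to 24 h). Settings other than scalings moved it too, and only some are listed. In wild type from 12 to 24 h it was 46.6% with array weights and 46.9% with only the groups compared. In the interaction from 12 to 24 h it was 47.2% with weights. With no filter it was 58.5% in mutant from 0 to 12 h, and 46.2% and 50.8% in wild type from 0 to 12 and 0 to 24 h. The interaction from 0 to 24 h then gave 49.8%. The share higher in mutant at 0, 12 and 24 h was 41.1%, 41.7% and 29.9% with no filter. Low signal limits what the 0 h arrays can show, with as few as 2.17% of probes above background.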
